A study of Mus musculus with 8 samples.

Results

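Death ligands, death receptors and the proteins that bind the receptors inside the cell make up the first step of extrinsic apoptosis. The 10 genes described here were chosen by symbol: the ligand genes Fasl, Tnf and Tnfsf10, the receptor genes Fas, Tnfrsf1a and Tnfrsf1b, and the proximal complex genes Fadd, Casp8, Cflar and Ripk1. All 10 were found among the 17384 genes of the deposited expression table, and all 10 passed the filter on low counts. RNA was sequenced from B220+CD3+ cells sorted from spleen, in 4 libraries titled EAF2Faslpr and 4 titled Faslpr. The first group came from Eaf2-/-Faslpr mice, which lack the transcription elongation factor gene Eaf2, and the second from Faslpr mice. Both groups carried the lpr allele of Fas, and no library with a normal Fas gene was analysed here. Not given in the sources used here are the kind of Eaf2 allele, any other strain background, and the age and sex of the mice. Nothing in the labels ties a replicate to its own animal. The p-values therefore measure the spread among these libraries, and that spread may be technical.

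Fas ligand, on activated T cells and natural killer cells, clusters the receptor Fas, which recruits the adaptor FADD and through it procaspase-8. The protein c-FLIP, encoded by Cflar, resembles caspase-8 and tunes its activation. TNF acts through TNFR1, which contains a death domain and builds a complex around the kinase RIPK1 that first favours survival, and through TNFR2, which has no death domain. The lpr allele is a retroviral-like insertion in an intron of Fas that cuts most transcripts short. T cells of lpr mice escape Fas-driven death and accumulate as cells that stain for B220, the B cell isoform of CD45, and their high Fas ligand is a known trait.

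Estimated reads per library ranged from 15563675 to 18640405. Levels are given as CPM, the estimated reads of a gene per library total after TMM scaling, on which 3 reads were worth 0.161 to 0.193 CPM. Eaf2 reached 4.74 ± 1.04 CPM in Eaf2-/-Faslpr and 25.5 ± 4.50 CPM in Faslpr libraries (SD, n = 4 each), with no overlap. Markers of T cells were abundant in every library, with a summed level of 4075 to 4300 CPM in Eaf2-/-Faslpr and 3793 to 4624 CPM in Faslpr libraries, and 1 of 10 passed the test, Cd2, which rose 2.07-fold. Ptprc, the gene of CD45, was at 2312 ± 114 CPM in Eaf2-/-Faslpr against 1989 ± 311 CPM in Faslpr libraries (adjusted p = 0.260), but gene counts do not show the B220 isoform. B cell markers summed to 361 to 703 CPM in Eaf2-/-Faslpr and 97.1 to 161 CPM in Faslpr libraries, and 12 of 13 rose, with Pax5 5.82-fold and Cd79a, the most abundant per length (FPKM), 4.74-fold higher. MHC class II genes summed to 483 to 866 CPM in Eaf2-/-Faslpr against 151 to 305 CPM in Faslpr libraries, and 5 of 6 rose, among them Ciita (3.92-fold) and Cd74 (2.91-fold). The 9 neutrophil markers summed to 88.9 CPM in Eaf2-/-Faslpr replicate 3 and to between 12.8 and 17.7 CPM in the other 7 libraries. Of other lists, 2 of 8 tested macrophage markers rose, none of the 4 neutrophil, 3 dendritic cell or 2 erythroid and platelet markers tested passed in edgeR, DESeq2 or limma-voom (3 neutrophil markers, and none of the others, had an unadjusted p under 0.05 in edgeR), and Xbp1 fell among 5 tested plasma cell markers. No tested marker was at 0 in every library. By the chi-square per degree of freedom between replicates, the 3 pairs with Faslpr replicate 4 lay at 23.3 to 36.7, and the other 9 pairs at 9.46 to 23.6. In bulk RNA, fewer cells of a type and less RNA per cell cannot be told apart.

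Of the 10 genes, Tnf rose, Fasl fell and 8 did not pass an adjusted p of 0.05 in edgeR's quasi-likelihood test across all genes. Over all 12340 genes tested, 12.1% passed (7.14% higher and 4.96% lower). With 10 genes, a count of 2 is not set apart from that share. The same pair, and none of the other 8, had groups whose CPM values did not overlap, against 17.7% of all genes tested (9.71% higher and 7.96% lower). The median log2 fold change was 0.10 over the 10 genes and −0.01 over all genes tested.

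Fasl and Tnf passed in opposite directions, and the 250 bases before their start sites are shown because they are the pair of genes that the results turn on. Sequences are from RefSeq on build GRCm38.p6, read on the gene's strand from 5′ to 3′, whereas the submitters' processing notes name GRCm39. Capitals mark matches to the NF-kB pattern of GGG, any 5 bases and CC, on either strand.
Fasl (chr1:161788496-161788745, minus strand): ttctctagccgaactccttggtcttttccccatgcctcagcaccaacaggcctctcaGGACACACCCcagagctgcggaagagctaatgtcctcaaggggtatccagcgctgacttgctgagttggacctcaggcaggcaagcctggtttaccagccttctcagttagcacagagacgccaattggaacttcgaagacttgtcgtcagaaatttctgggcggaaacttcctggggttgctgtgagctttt
Tnf (chr17:35202008-35202257, minus strand): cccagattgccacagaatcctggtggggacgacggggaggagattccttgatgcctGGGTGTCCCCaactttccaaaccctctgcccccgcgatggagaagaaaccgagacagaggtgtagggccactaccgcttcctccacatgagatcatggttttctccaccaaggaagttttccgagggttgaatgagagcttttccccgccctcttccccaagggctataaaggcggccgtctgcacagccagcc
Each window holds 1 such place, at positions −193 to −184 from the start of Fasl and −194 to −185 from that of Tnf. It reads on the minus strand in Fasl and on both strands in Tnf, and overlaps no match of the other patterns, which were also searched on both strands. The pattern is loose: 45.8% of 32851 mouse promoter windows of this length hold it. The box TATAAA stands at positions −29 to −24 of Tnf, is not in the Fasl window, and occurs in 12.4% of windows. The NFAT core GGAAA occurs at 2 places in the Fasl window and 3 in the Tnf window, and in 55.6% of windows. The AP-1 pattern TGANTCA (6.75% of windows) and the EGR pattern GCGNGGGCG (4.70%) have no match in either window, which says only that these letters are not there.

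Fasl encodes Fas ligand, the membrane protein that triggers Fas on a neighbouring cell or on the cell itself. It was measured at 191, 210, 183 and 180 CPM in the 4 Eaf2-/-Faslpr libraries, against 345, 317, 306 and 358 CPM in the 4 Faslpr libraries. Every Eaf2-/-Faslpr library lay below every Faslpr library. The log2 fold change was −0.80 (SE 0.08, edgeR quasi-likelihood adjusted p = 0.000198). Between 2973 and 3847 estimated reads stood behind the Eaf2-/-Faslpr values and between 5321 and 6658 behind the Faslpr values. Per length, Fasl was the most abundant of the 10 genes in both groups, at 102 ± 7.04 FPKM in Eaf2-/-Faslpr and 175 ± 12.0 FPKM in Faslpr libraries (FPKM, fragments scaled by gene length and library size, as the authors deposited them). T cell marker sums overlapped between the groups, whereas the sum of 6 natural killer cell markers, most of it Eomes, was 1843 to 2133 CPM in Eaf2-/-Faslpr and 2180 to 2505 CPM in Faslpr libraries. The members did not move together: of the 4 tested, Klrk1 rose (5.50 ± 1.59 CPM in Eaf2-/-Faslpr against 1.73 ± 0.981 CPM in Faslpr libraries) and Prf1 fell. Nkg7 was at 290.1 ± 47.9 CPM in Eaf2-/-Faslpr against 278 ± 36.2 CPM in Faslpr libraries (adjusted p = 0.824). Ncr1 and Klrb1c, too low to test, were at 0.589 ± 0.425 and 0.676 ± 0.272 CPM in Eaf2-/-Faslpr against 0.0968 ± 0.0932 and 0.361 ± 0.141 CPM in Faslpr libraries. Prf1, the perforin gene and a marker of cytotoxic cells, fell 1.42-fold (181 ± 28.9 CPM in Eaf2-/-Faslpr against 257 ± 17.6 CPM in Faslpr libraries), while Eomes was at 1540 ± 113 CPM in Eaf2-/-Faslpr against 1794 ± 137 CPM in Faslpr libraries (adjusted p = 0.119). The sum of the 6 markers thus mostly follows Eomes and does not measure natural killer cells. The part of natural killer or other cytotoxic cells in the Fasl result was not tested.

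Tnf encodes the soluble and membrane-bound cytokine TNF. It was measured at 7.13, 10.5, 12.1 and 15.6 CPM in the Eaf2-/-Faslpr libraries, against 1.89, 2.56, 2.26 and 3.23 CPM in the Faslpr libraries. The lowest Eaf2-/-Faslpr library was above the highest Faslpr library. The log2 fold change was 2.19 (SE 0.26, edgeR adjusted p = 0.000534), from 111 to 282 estimated reads per Eaf2-/-Faslpr library and 33 to 60 per Faslpr library. The B cell markers had a median log2 fold change of 2.11 over the same libraries, and their part in the Tnf result was not tested. B cell marker sums were 361, 397, 703 and 392 CPM in Eaf2-/-Faslpr replicates 1 to 4, against 97.1 to 161 CPM in Faslpr libraries. Tnf and these markers were thus both higher in every Eaf2-/-Faslpr library, and this design cannot tell them apart. Without replicate 3 of Eaf2-/-Faslpr the log2 fold change of Tnf was 2.15 (edgeR adjusted p = 0.00216). That fit does not remove the difference in B cell markers between the groups.

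Tnfsf10 encodes TRAIL, a ligand of death receptors that spares most normal cells. It was measured at 24.7, 11.0, 14.9 and 18.5 CPM in Eaf2-/-Faslpr libraries, against 10.6, 9.99, 14.7 and 9.02 CPM in Faslpr libraries. The groups overlapped, and Eaf2-/-Faslpr replicate 1 was the highest library. The log2 fold change of 0.64 (SE 0.24) did not pass (edgeR adjusted p = 0.119), and it passed without Eaf2-/-Faslpr replicate 2 (log2 fold change 0.81, adjusted p = 0.0422).

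**Figure D1:**
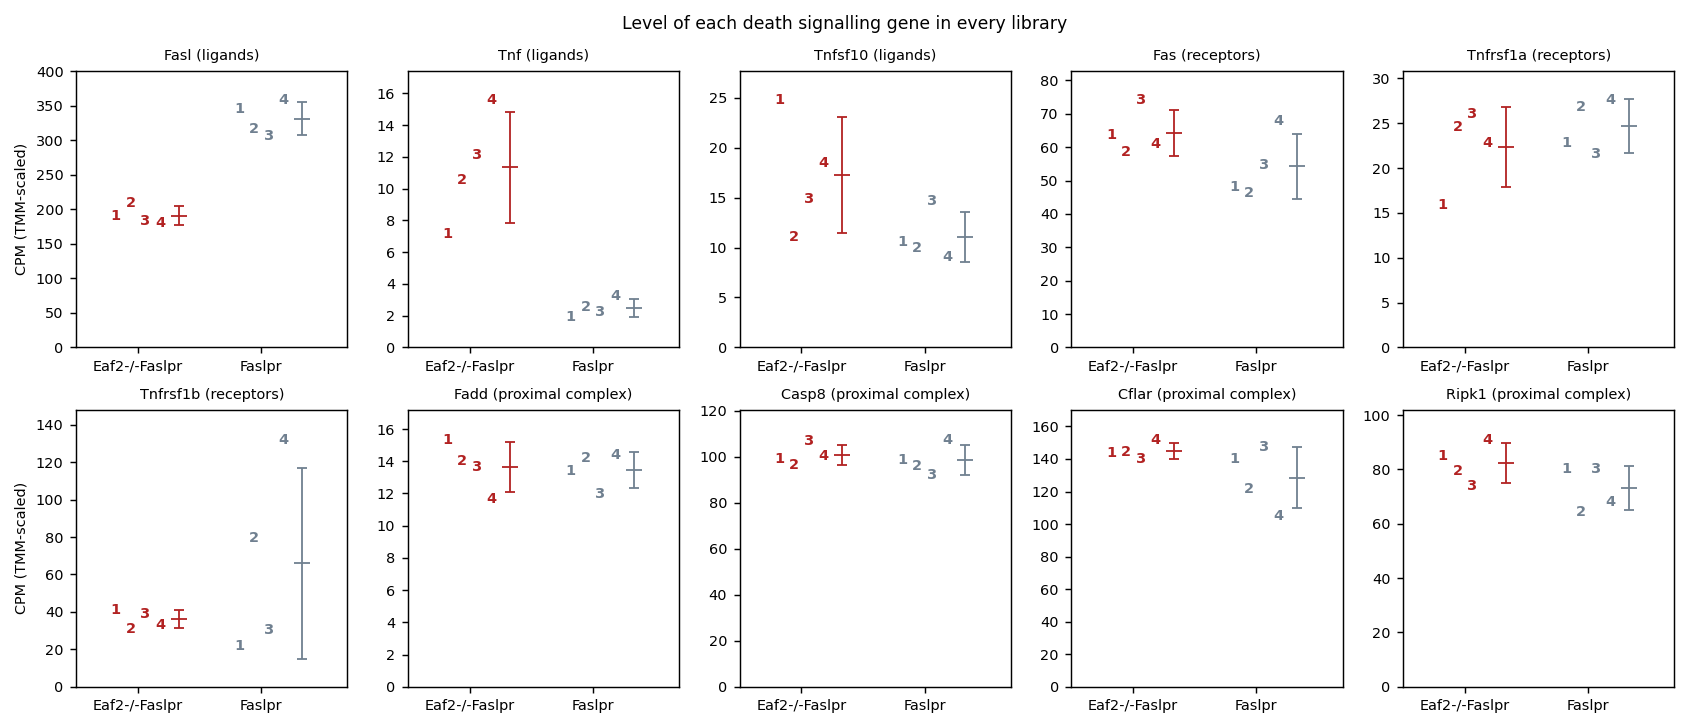
Each panel plots 1 gene on its own linear axis starting at 0 (CPM), with the digits marking the replicate number of each library and the bars the mean ± SD (n = 4). Fasl (180 to 210 CPM in Eaf2-/-Faslpr, 306 to 358 CPM in Faslpr) and Tnf (7.13 to 15.6 CPM in Eaf2-/-Faslpr, 1.89 to 3.23 CPM in Faslpr) show no overlap between genotypes, and the other 8 genes overlap.

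Among the receptors, Fas was measured at 63.7, 58.4, 74.0 and 60.8 CPM in Eaf2-/-Faslpr libraries, against 48.2, 46.3, 54.7 and 68.0 CPM in Faslpr libraries. Faslpr replicate 4 lay within the Eaf2-/-Faslpr range, and the other 3 Faslpr libraries lay below it. The log2 fold change was 0.24 (SE 0.13, edgeR adjusted p = 0.276), and 0.37 without Faslpr replicate 4, where it passed (adjusted p = 0.0415). These counts do not separate full-length from shortened Fas transcripts. The effective length behind the authors' FPKM, which follows the estimated mix of isoforms, lay between 95.9% and 103% of its mean for Fas over the 8 libraries. Of 5828 genes with at least 500 estimated reads in every library, 9.80% had a wider range. This length cannot show a shortened transcript that is absent from the annotation used, which is not given. Tnfrsf1a, the gene of TNFR1, was measured at 15.9, 24.6, 26.0 and 22.8 CPM in Eaf2-/-Faslpr libraries, against 22.8, 26.9, 21.6 and 27.6 CPM in Faslpr libraries. Its groups overlapped, with Eaf2-/-Faslpr replicate 1 the lowest library (log2 fold change −0.14, edgeR adjusted p = 0.629).

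Tnfrsf1b, the gene of TNFR2, a receptor that supports activated and regulatory T cells, varied most within a group. It was measured at 41.1, 30.8, 39.1 and 33.1 CPM in Eaf2-/-Faslpr libraries, against 21.6, 79.7, 30.2 and 132 CPM in Faslpr replicates 1, 2, 3 and 4. Replicates 2 and 4 of Faslpr lay above every Eaf2-/-Faslpr library, and replicates 1 and 3 lay below them all. The means of 36.0 ± 4.87 CPM in Eaf2-/-Faslpr and 65.9 ± 51.0 CPM in Faslpr libraries gave a log2 fold change of −0.87 (SE 0.47, edgeR adjusted p = 0.288), which was −0.28 without Faslpr replicate 4 (adjusted p = 0.707). The effective length of Tnfrsf1b ranged from 89.9% to 109% of its mean, the widest range of the 10 genes.

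Genes beside Tnfrsf1b on chromosome 4 were looked up after this spread was seen, as the 5 nearest tested genes on each side in RefSeq's GRCm38.p6 gene table. None of these 10 passed the edgeR test between genotypes, with 4 at an unadjusted p under 0.05 and 1, Tnfrsf8, past the threshold in DESeq2. The adjacent gene Tnfrsf8, which encodes the TNF receptor family member CD30, was at 1.73, 3.22, 0.992 and 1.21 CPM in Eaf2-/-Faslpr libraries, against 1.60, 13.2, 2.64 and 18.8 CPM in Faslpr replicates 1 to 4. Dhrs3, the adjacent gene on the other side, was at 4.53 to 6.62 CPM in Eaf2-/-Faslpr libraries, against 5.21, 7.63, 6.77 and 11.4 CPM in Faslpr replicates 1 to 4. Both were thus highest in the Faslpr libraries that were highest for Tnfrsf1b. Vps13d was at 70.2 to 82.6 CPM in Eaf2-/-Faslpr libraries, against 75.8, 99.4, 85.6 and 118 CPM in the Faslpr replicates. The zinc finger gene Zfp990 had the opposite order, at 93.6 to 117 CPM in Eaf2-/-Faslpr libraries, against 97.1, 50.5, 81.3 and 0.323 CPM in the Faslpr replicates. Zfp990 belongs to a family of similar copies among which estimated reads may be divided, so its values are uncertain. In Faslpr replicates 1 to 4, Gm42346 was at 11.7, 4.83, 10.9 and 0.538 CPM, and Zfp980 at 3.15, 2.20, 3.36 and 0.269 CPM. Within Faslpr, both were also lowest in replicates 2 and 4. Gm13212 was at 153, 160, 137 and 74.0 CPM in the same libraries, and so was lowest in replicate 4 but highest in replicate 2. By the same measure of likeness as below, also applied to Tnfrsf1b after its values were seen, the closest patterns among 9926 genes were those of Rpp38 (root mean square difference 0.37), Zfp984 (0.37) and Dhrs3 (0.50) on the log2 scale.

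**Figure D2:**
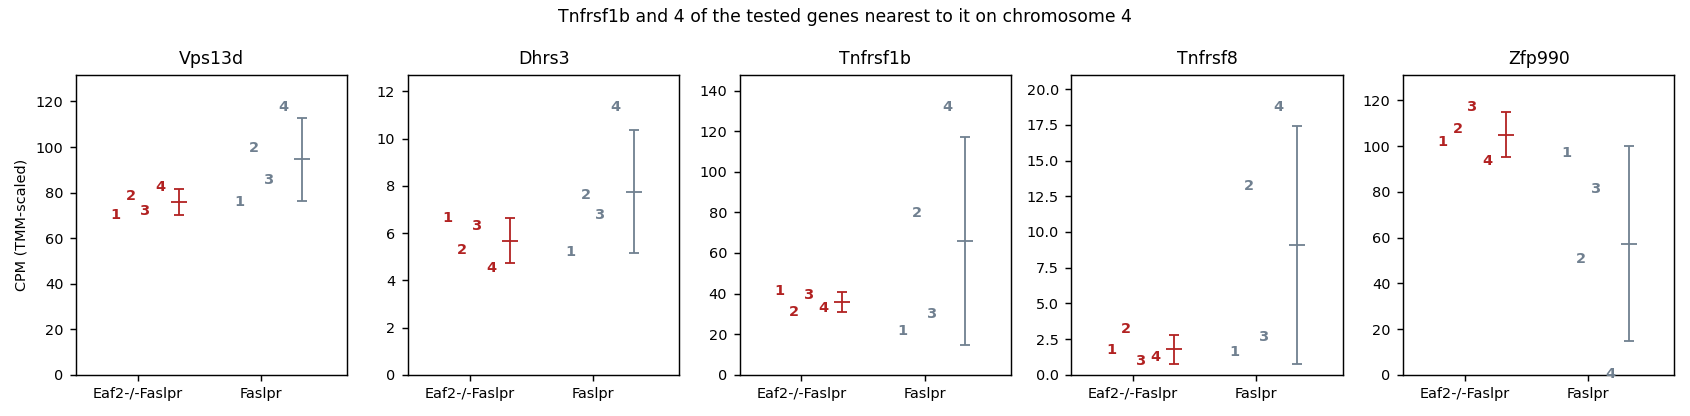
Tnfrsf1b and 4 of the 10 tested genes nearest to it on chromosome 4, in CPM on linear axes from 0, with digits for replicate numbers and bars for the mean ± SD (n = 4). Faslpr replicates 2 and 4 are the highest libraries for Tnfrsf1b (79.7 and 132 CPM) and Tnfrsf8 (13.2 and 18.8 CPM) and the lowest for Zfp990 (50.5 and 0.323 CPM).

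None of the 4 genes of the proximal complex passed in edgeR, DESeq2 or limma-voom, and none had an unadjusted p under 0.05 in edgeR. Fadd, the adaptor that joins Fas to caspase-8, was at 15.3, 14.0, 13.6 and 11.6 CPM in Eaf2-/-Faslpr libraries, against 13.4, 14.2, 11.9 and 14.4 CPM in Faslpr libraries (log2 fold change 0.02, SE 0.12, edgeR adjusted p = 0.941). Casp8, the initiator caspase, was at 99.1, 96.3, 107 and 100.5 CPM in Eaf2-/-Faslpr libraries, against 98.4, 95.8, 92.3 and 107 CPM in Faslpr libraries (log2 fold change 0.03, SE 0.07, edgeR adjusted p = 0.827). The ranges of both genes overlapped between genotypes.

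Cflar was at 144, 144, 140 and 152 CPM in Eaf2-/-Faslpr libraries, against 140, 122, 148 and 105 CPM in Faslpr replicates 1 to 4 (log2 fold change 0.17, SE 0.10, edgeR adjusted p = 0.327). Ripk1, the kinase of the TNFR1 complex, was at 84.9, 79.4, 74.0 and 91.0 CPM in Eaf2-/-Faslpr libraries, against 80.1, 64.4, 80.1 and 68.0 CPM in the Faslpr replicates (log2 fold change 0.17, SE 0.10, edgeR adjusted p = 0.314). For Cflar and for Ripk1, the lowest libraries were Faslpr replicates 2 and 4, those with the highest Tnfrsf1b. Ripk1 overlaps Serpinb6a on the opposite strand, and no source used here gives the strand setting of the counting, so reads of the pair may be exchanged. Serpinb6a itself was at 33.3 ± 4.10 CPM in Eaf2-/-Faslpr against 35.9 ± 3.62 CPM in Faslpr libraries. Cflar and Casp8 are near neighbours on chromosome 1.

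Levels of different genes were compared per length, in the authors' FPKM. The length used for Fas may not match transcripts cut short by the lpr allele, so the place of Fas in the order is uncertain. In Eaf2-/-Faslpr libraries the order from high to low was Fasl, Fas, Casp8, Cflar, Ripk1, Tnfrsf1a, Tnfrsf1b, Tnf, Fadd and Tnfsf10. The ranges of Fas and Casp8 overlapped there (46.1 ± 4.80 and 45.7 ± 2.43 FPKM), as did each neighbouring pair from Tnfrsf1a down to Tnfsf10. In Faslpr libraries the order was Fasl, Casp8, Fas, Cflar, Tnfrsf1b, Ripk1, Tnfrsf1a, Fadd, Tnfsf10 and Tnf. Neighbours overlapped there for Casp8 and Fas, for Cflar and Tnfrsf1b, for Tnfrsf1b and Ripk1, and for Tnfsf10 and Tnf. Tnf was thus the scarcest of the 10 in Faslpr libraries, at 1.56 ± 0.384 FPKM, and lay at 7.10 ± 2.18 FPKM in Eaf2-/-Faslpr libraries.

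The FPKM of Fasl divided by that of Fas in the same library was 2.23 ± 0.329 in Eaf2-/-Faslpr and 4.55 ± 0.662 in Faslpr libraries (SD, n = 4 each). The uncertain length of Fas transcripts makes the size of this ratio uncertain in both genotypes. The FPKM of Cflar divided by that of Casp8 was 0.577 ± 0.0278 in Eaf2-/-Faslpr against 0.519 ± 0.10 in Faslpr libraries, with overlapping ranges. Casp8 stood 9.53 ± 1.25 times above Fadd in Eaf2-/-Faslpr and 9.33 ± 0.481 times above it in Faslpr libraries.

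**Figure D3:**
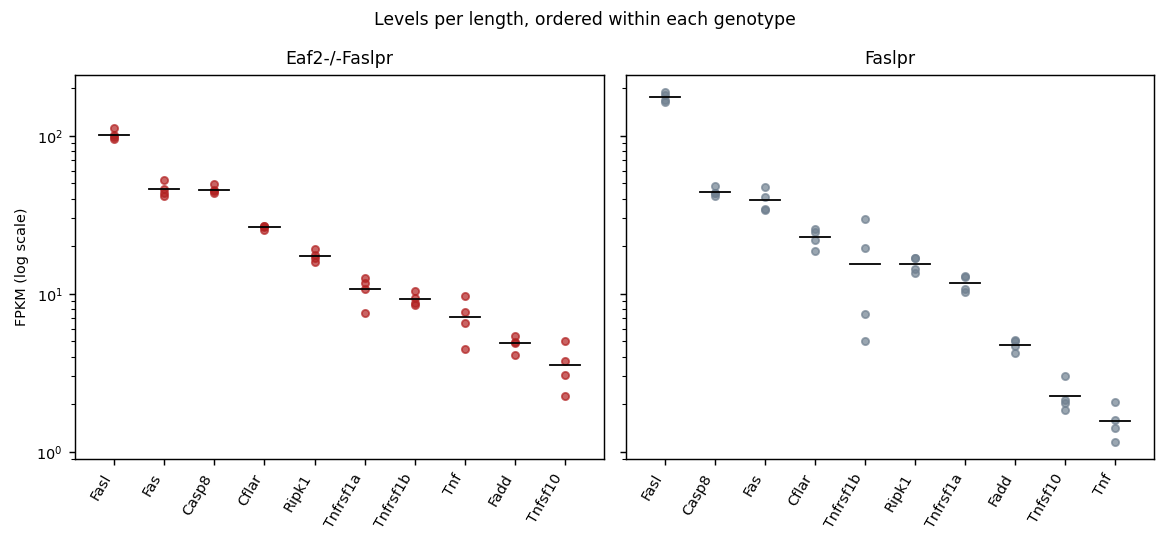
FPKM of the 10 genes on a log axis, ordered within each genotype, with a point per library and a line at the mean of 4. Fasl lies above all others in Eaf2-/-Faslpr (102 FPKM on average) and Faslpr (175 FPKM), and Tnf is the lowest gene in Faslpr (1.56 FPKM) and the eighth in Eaf2-/-Faslpr (7.10 FPKM).

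Likeness to Fasl and Tnf was measured over the 8 libraries as the root mean square difference of log2 CPM, each gene centred on its own mean, among 9926 genes averaging at least 5 CPM. Closest to Fasl were Srp68, a subunit of the signal recognition particle (difference 0.06), Cxcr5, the chemokine receptor of follicular lymphocytes (0.10), and Gpr183, the oxysterol receptor that also guides lymphocytes to follicles (0.10). Cxcr5 was at 216 to 269 CPM in Eaf2-/-Faslpr and 344 to 390 CPM in Faslpr libraries. Closest to Tnf were the AP-1 subunit gene Fosb (0.24), the cytokine receptor gene Il9r (0.25) and the stress phosphatase subunit gene Ppp1r15a (0.26). Fosb was at 212 to 490 CPM in Eaf2-/-Faslpr and 61.6 to 106 CPM in Faslpr libraries.

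On chromosome 17, Tnf stands between Ltb and Lta, the genes of the 2 lymphotoxin chains. Both rose: Ltb was at 122 ± 42.4 CPM in Eaf2-/-Faslpr against 50.9 ± 17.6 CPM in Faslpr libraries (2.40-fold, edgeR adjusted p = 0.0158) and Lta at 4.22 ± 1.48 CPM in Eaf2-/-Faslpr against 2.12 ± 0.334 CPM in Faslpr libraries (1.99-fold, edgeR adjusted p = 0.0454). Of the 10 tested genes nearest to Tnf, 3 passed, the third being D17H6S53E, which fell (log2 fold change −0.45). Ltb lost its call without Faslpr replicate 2 (adjusted p = 0.0552). Lta kept its call in 1 of the 8 fits that left out a library, the fit without Eaf2-/-Faslpr replicate 1, with adjusted p up to 0.124 in the others. B cells also express lymphotoxins, 12 of 13 B cell markers rose, and their part in these results was not tested. Of the 10 tested genes nearest to Fasl, 1 passed, Pigc, which fell (log2 fold change −0.35).

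Genes that work with the 10 were taken from 9 lists of 75 genes, of which 71 were tested, 13 rose and 1 fell. Their share past the threshold was 19.7%, against 12.1% of all genes tested, and the median log2 fold change was 0.10, against −0.01. The lists were chosen with earlier results of these data known, so the comparison cannot show that they are enriched. Most B cell and MHC class II markers rose as well. The count of genes past the threshold was 6 without Faslpr replicate 2 and 7 without Eaf2-/-Faslpr replicate 4, and 9 in each fit without Eaf2-/-Faslpr replicate 2, Eaf2-/-Faslpr replicate 3 or Faslpr replicate 1.

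Among other death receptors, TRAIL decoy receptors and lymphotoxins, 5 of 8 tested genes rose and none fell. Tnfrsf21, which encodes a death receptor also known from neurons, rose 3.63-fold at a low level (1.36 ± 0.135 CPM in Eaf2-/-Faslpr against 0.377 ± 0.211 CPM in Faslpr libraries, edgeR adjusted p = 0.0118). Tnfrsf23, a mouse decoy receptor gene for TRAIL, rose 1.60-fold (13.2 ± 1.32 CPM in Eaf2-/-Faslpr against 8.25 ± 1.71 CPM in Faslpr libraries), and lost its call in 4 of 8 fits, without Eaf2-/-Faslpr replicates 2 or 4 or Faslpr replicates 1 or 2 (adjusted p up to 0.0603). Tnfrsf25 and Lta, named after their values were seen, also rose in edgeR. Neither passed in limma-voom (adjusted p = 0.0527 for Tnfrsf25 and 0.0741 for Lta). Tnfrsf25 was at 1.91 ± 0.856 CPM in Eaf2-/-Faslpr against 0.521 ± 0.298 CPM in Faslpr libraries and kept its call in 2 of 8 fits, without Eaf2-/-Faslpr replicate 2 or Faslpr replicate 3. Tnfrsf10b, the mouse receptor gene for TRAIL that carries a death domain, did not pass (log2 fold change 0.06, edgeR adjusted p = 0.778).

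Genes for shedding of ligands and receptors from the cell surface had 1 of 7 members higher and none lower. Rhbdf1, a partner of the TNF-releasing protease ADAM17, rose 3.0-fold at a low level (1.78 ± 0.415 CPM in Eaf2-/-Faslpr against 0.591 ± 0.231 CPM in Faslpr libraries, edgeR adjusted p = 0.0103). Frmd8, the most abundant per length (FPKM), was at 134 ± 4.90 CPM in Eaf2-/-Faslpr against 115 ± 10.3 CPM in Faslpr libraries (adjusted p = 0.0951, and past the threshold without Faslpr replicate 3). Adam17 was at 87.4 ± 7.71 CPM in Eaf2-/-Faslpr against 81.3 ± 6.45 CPM in Faslpr libraries (adjusted p = 0.504).

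Components of the TNFR1 complex gave 1 call among 15 genes. Birc3, which encodes a ubiquitin ligase that keeps RIPK1 in its survival form, rose 1.33-fold (70.7 ± 3.45 CPM in Eaf2-/-Faslpr against 53.0 ± 4.19 CPM in Faslpr libraries, edgeR adjusted p = 0.00582). Traf1, the most abundant of the list per length (FPKM), was at 277 ± 39.2 CPM in Eaf2-/-Faslpr against 221 ± 47.7 CPM in Faslpr libraries (adjusted p = 0.224). Neither adaptor gene, Tradd (log2 fold change 0.07, adjusted p = 0.708) nor Traf2 (−0.01, adjusted p = 0.959), passed.

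Of 10 genes that restrain the TNFR1 complex or the death it can start, 3 rose and none fell. Tnfaip3, a ubiquitin-editing enzyme, was at 241 ± 47.0 CPM in Eaf2-/-Faslpr against 82.4 ± 13.5 CPM in Faslpr libraries (log2 fold change 1.55, SE 0.15, edgeR adjusted p = 0.000198). The kinase gene Ikbke rose 1.23-fold (248 ± 10.3 CPM in Eaf2-/-Faslpr against 202 ± 17.6 CPM in Faslpr libraries) and lost its call in 5 of 8 fits, kept without Eaf2-/-Faslpr replicate 1 and without Faslpr replicates 3 or 4. The adaptor gene Tank also rose 1.23-fold (168 ± 7.71 CPM in Eaf2-/-Faslpr against 136 ± 12.1 CPM in Faslpr libraries) and lost its call in 6 of 8 fits, kept without Faslpr replicates 1 or 4. The deubiquitinase gene Cyld was at 198 ± 16.5 CPM in Eaf2-/-Faslpr against 188 ± 20.3 CPM in Faslpr libraries (adjusted p = 0.685).

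None of 8 genes for death effector domain proteins and Fas-binding regulators passed in edgeR, DESeq2 or limma-voom, and none had an unadjusted p under 0.05 in edgeR. Pea15a, the most abundant in FPKM, was at 180 ± 39.3 CPM in Eaf2-/-Faslpr against 158 ± 12.7 CPM in Faslpr libraries (edgeR adjusted p = 0.474), and passed without Eaf2-/-Faslpr replicate 1. Of 4 necroptosis genes none passed in edgeR, DESeq2 or limma-voom, with 1 at an unadjusted p under 0.05, Ripk3, the partner kinase of RIPK1 (log2 fold change 0.25, adjusted p = 0.166). Zbp1, the most abundant in FPKM, was at 35.3 ± 5.41 CPM in Eaf2-/-Faslpr against 32.9 ± 5.49 CPM in Faslpr libraries.

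Among proteins that bind Tnf mRNA or similar transcripts, 2 of 8 rose and none fell. Zfp36, which encodes tristetraprolin and speeds decay of Tnf mRNA, was at 325 ± 52.4 CPM in Eaf2-/-Faslpr against 166 ± 31.0 CPM in Faslpr libraries (log2 fold change 0.97, SE 0.15, edgeR adjusted p = 0.00224). Zc3h12a, a ribonuclease gene, rose 1.59-fold (50.3 ± 2.02 CPM in Eaf2-/-Faslpr against 31.5 ± 4.85 CPM in Faslpr libraries, adjusted p = 0.00304). Zfp36l1, the most abundant in FPKM, was at 541 ± 32.9 CPM in Eaf2-/-Faslpr against 433 ± 56.2 CPM in Faslpr libraries (adjusted p = 0.0584, and past the threshold without Faslpr replicate 3). Of 8 transcription factors known to act on Fasl, Irf1 rose 1.35-fold (232 ± 32.1 CPM in Eaf2-/-Faslpr against 171 ± 27.1 CPM in Faslpr libraries, edgeR adjusted p = 0.0481) and lost its call in 6 of 8 fits, kept without Eaf2-/-Faslpr replicate 2 and without Faslpr replicate 3. Nfatc1, the most abundant in FPKM, was at 717 ± 44.3 CPM in Eaf2-/-Faslpr against 824 ± 52.9 CPM in Faslpr libraries (adjusted p = 0.117), and Egr2 was at 446 ± 27.9 CPM in Eaf2-/-Faslpr against 463 ± 59.1 CPM in Faslpr libraries (adjusted p = 0.784).

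**Figure D4:**
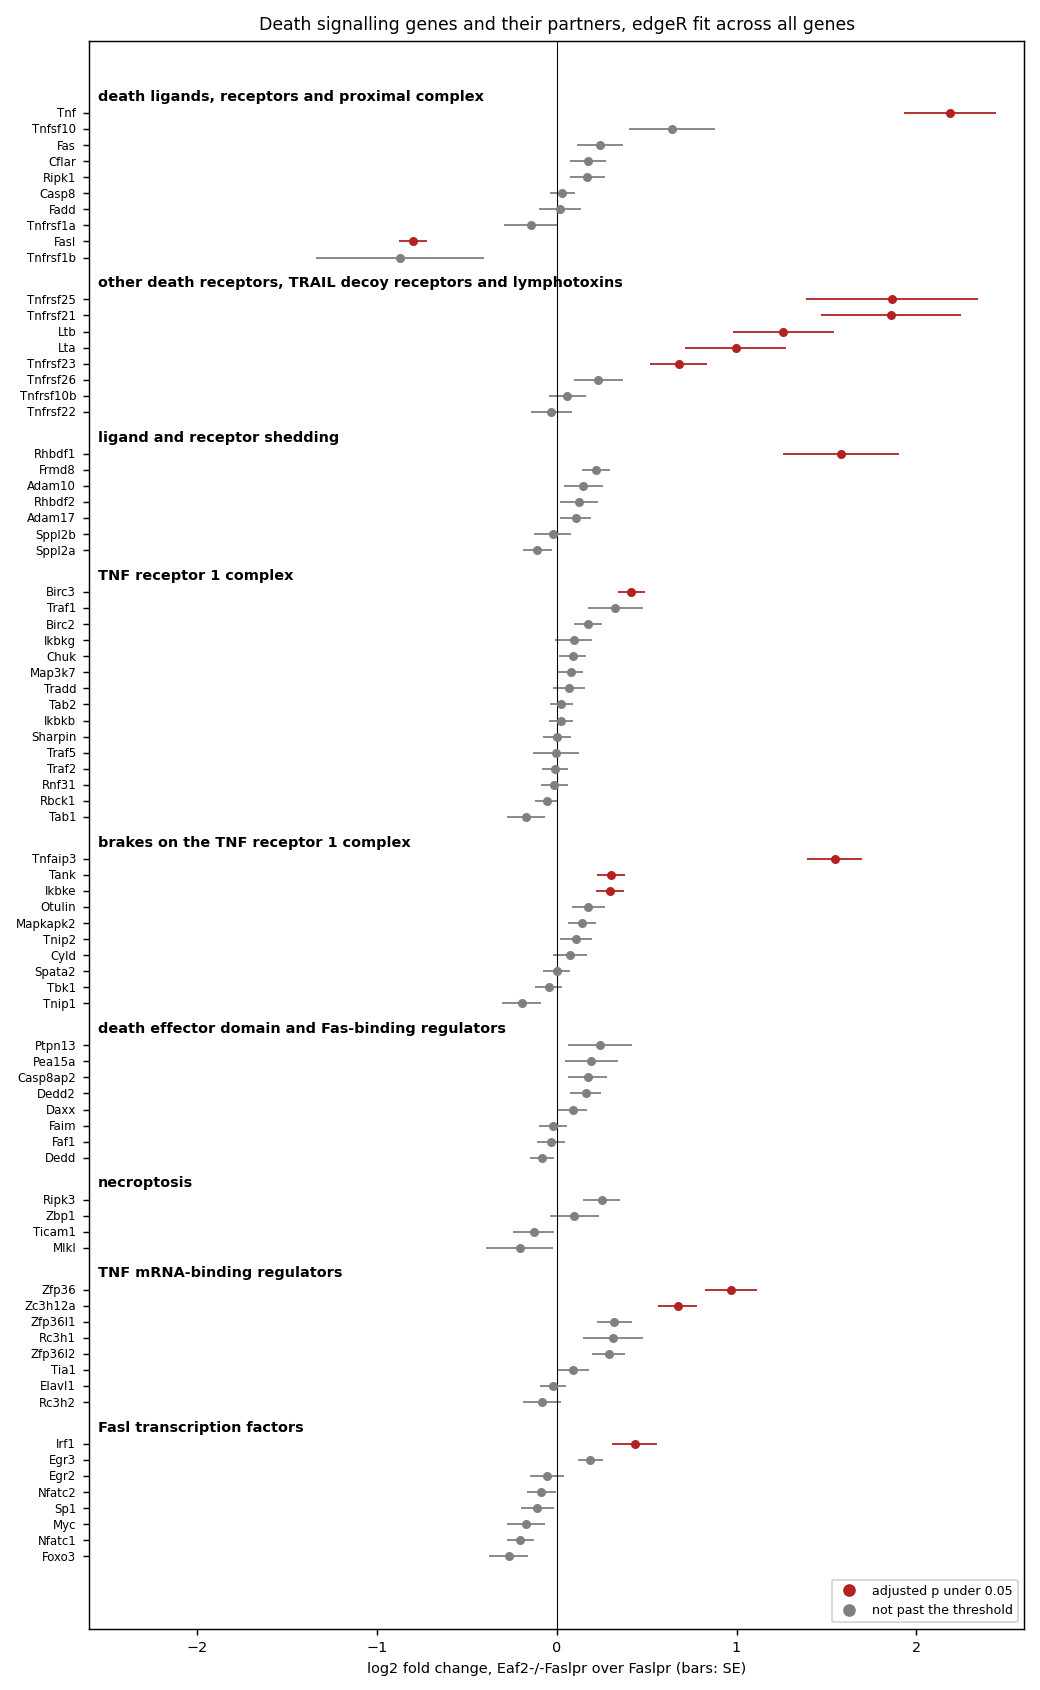
Log2 fold changes (Eaf2-/-Faslpr over Faslpr, x axis) with their SE for the 10 genes and for 68 tested genes of 8 of the lists, red where the adjusted p of edgeR's quasi-likelihood test was under 0.05. Tnf (2.19) and Fasl (−0.80) are the only red points of the top block, and below it 13 genes are red, all to the right of 0.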

How the data were processed

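RNA of sorted spleen cells was measured in 8 libraries, 4 per genotype, grouped by sample title. The authors deposited, for each library, an estimated count per gene and an FPKM value, which relates that estimated count to gene length and library size, per the file headers. The submitters' processing notes name HISAT2 2.2.1, Bowtie2 2.4.5, RSEM 1.3.1 and build GRCm39, with no order. Not given in the sources used here: annotation, strand setting and filters. A further 16 per-sample columns were not used. Estimated counts can divide reads among similar genes; 36.8% were whole numbers. They were rounded, filtered with filterByExpr, scaled by TMM and tested with edgeR 4.0.16 (R 4.3.3; quasi-likelihood, two-sided, Benjamini-Hochberg adjustment over 12340 genes, threshold 0.05). CPM, means and SD come from the unrounded estimated counts, with 1 exception. Values for the genes near Tnfrsf1b, and for the genes most like Fasl, Tnf or Tnfrsf1b, come from the rounded counts. Depth ranged from 15563675 to 18640405 estimated reads; floors cover counting error only. The script was tested on simulated data.

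Alternatives were RLE, upper-quartile or total scaling, other filters, DESeq2 1.42.0, limma 3.58.1 (voom, or log2(FPKM + 0.1) and log2(FPKM + 1)), a replicate block, and leaving out each library or both numbered 4.

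The genes and lists were chosen with earlier results of these data known. The text names all 10 genes, up to 3 passing genes by smallest p and the most abundant gene of each list by FPKM, and the 3 genes most like each passing gene. Named after their values were seen were Tnfrsf10b, Tnfrsf25, Lta, Adam17, Tradd, Traf2, Cyld, Ripk3, Egr2, Klrk1, Nkg7, Ncr1, Klrb1c and the chromosome neighbours. Some genes of the lists and neighbourhoods are not reported here.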

Additional observations from a re-analysis of the deposited data

Results flagged for a closer look

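Birc3 in Eaf2-/-Faslpr replicate 1 was at 75.9 CPM, apart from the other 3 Eaf2-/-Faslpr libraries at 68.4 to 69.7 CPM. The gap to the nearest library was 0.834 of the range of the group. This was the single such case in 62 groups of 4 libraries (31 genes in each genotype), where chance gives about 1 in 20 groups.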

How the results depend on the processing

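Fasl and Tnf passed under all 19 alternatives, with log2 fold changes of −0.85 to −0.73 for Fasl and 1.63 to 2.35 for Tnf. The count among the 10 genes was 2 to 3 when a library was left out, with Tnfsf10 added without Eaf2-/-Faslpr replicate 2 and Fas without Faslpr replicate 4. Over all genes, 1493 passed, against 990 to 1599 when a library was left out (990 without Faslpr replicate 2), 1051 among genes averaging at least 5 CPM, and 1022 without both libraries numbered 4. Of the genes that work with the 10, 14 passed, against 6 to 16 when a library was left out, 9 with the 5 CPM filter and 7 without both libraries numbered 4. Those higher numbered 13, against 6 to 15 when a library was left out, 8 with the 5 CPM filter and 7 without both libraries numbered 4. Those lower numbered 1, against 0 to 1 when a library was left out and 0 without both libraries numbered 4. Tnfrsf21, Tnfrsf25, Rhbdf1 and Lta averaged under 5 CPM and so were not tested under that filter, where Irf1 lost its call (edgeR adjusted p = 0.0523). The cause of the other changes was not tested. The log2 fold change of Fadd, which never passed, ranged from −0.04 to 0.12. Same-numbered libraries of the genotypes correlated at 0.16, 0.18, 0.06 and −0.06 in their deviations from group means. Libraries with different numbers correlated at −0.29 to 0.18. These values do not decide whether the numbers mark pairs. The labels state no pairing, and the numbers were not taken as pairs. With a replicate block, 1425 genes passed, with 13 of the lists and 2 of the 10 genes, and Irf1 lost its call (adjusted p = 0.0538). Reads were few for Tnf in Faslpr libraries (33 to 60).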
